A study of Mus musculus with 9 samples.

Results

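The TGF-beta system was followed through 10 genes in cultured mouse fibroblasts: the ligands Tgfb1, Tgfb2 and Tgfb3, the receptors Tgfbr1, Tgfbr2 and Tgfbr3, and the latent binding proteins Ltbp1, Ltbp2, Ltbp3 and Ltbp4. They were chosen by name and matched by Ensembl ID among the 51912 genes of the count table, and 10 of 10 were found and passed the filter on low counts, with 14314 genes tested in all. The libraries came as 3 groups of 3 from C57BL/6 cells in DMEM with serum: cancer-associated fibroblasts (CAF, fibroblasts of the tumour stroma) of genotype beta-catenin -/-, CAF of wild type genotype, and normal fibroblasts (NF), also wild type. The labels do not say how the allele was deleted, from which tissue or age the cells came, or whether each replicate was its own animal or culture. The p-values therefore measure only how far these samples spread, and that spread may be technical.

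TGF-beta is secreted in a latent form, in which the ligand is held by its own propeptide, and most cells bind that complex to a latent TGF-beta binding protein that anchors it in the matrix. Released ligand assembles the kinase receptors encoded by Tgfbr2 and Tgfbr1, which phosphorylate Smad2 and Smad3, while the Tgfbr3 product, betaglycan, presents ligand to them. In fibroblasts the pathway is known for driving collagen deposition and the contractile myofibroblast state.

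The libraries held 15433810 to 21893574 counts. Ctnnb1, the gene of the genotype label, stood at 668, 637 and 627 CPM (counts relative to TMM-scaled library size) in beta-catenin -/- CAF, 855, 882 and 858 CPM in CAF and 713, 799 and 668.5 CPM in NF. It was lower in beta-catenin -/- CAF than in CAF by a log2 fold change of -0.43 ± 0.14 (SE, edgeR adjusted p = 0.0339), but a count over the whole gene cannot check a deletion of part of it. Of 13 fibroblast markers, 12 averaged at least 1 CPM in beta-catenin -/- CAF, 13 in CAF and 12 in NF; the one below was Thy1, which averaged 0.239 CPM in beta-catenin -/- CAF, 1960 CPM in CAF and 0.389 CPM in NF. Summed, these markers reached 7349 to 8160 CPM in beta-catenin -/- CAF, 34960 to 53520 in CAF and 5498 to 7135 in NF, so libraries labelled as fibroblasts differed in these genes. NF replicate 1 stood apart from its group. Across tested genes its log2 CPM correlated at 0.943 to 0.957 (Pearson r) with the other NF libraries. With beta-catenin -/- CAF it correlated at 0.990 to 0.994, inside the range of 0.985 to 0.995 among those libraries themselves. Whether NF replicate 1 is rightly labelled was not tested, and some results below are also given without it. Marker lists of other cell types also held differences between groups, but some of their summed ranges overlapped. Of 6 pericyte and smooth muscle markers, 4 (Mcam, Myh11, Lmod1 and Des) were called higher and 2 (Rgs5 and Cspg4) lower in CAF than NF. Over all tested genes, 20% were called higher and 19.9% lower. The same 4 were called lower and Cspg4 higher in beta-catenin -/- CAF than in CAF, beside 22.7% and 21.5% of all tested genes. The 6 summed to 547 to 1136 CPM in beta-catenin -/- CAF, 309 to 430.1 in CAF and 160 to 812 in NF. Cspg4 averaged 834, 92.2 and 400 CPM in that order, and Lmod1, one of the 4, averaged 0.230, 126 and 0.161 CPM. Summed endothelial markers (4 genes) were at 1.09 to 1.30 CPM in beta-catenin -/- CAF, 7.64 to 16.3 in CAF and 1.84 to 2.52 in NF, and epithelial markers (7 genes) at 0.346 to 0.519, 5.603 to 16.2 and 0.887 to 3.58 CPM in that order. Leukocyte markers (4 genes) summed to 18.5 to 24.3, 3.25 to 5.88 and 22.8 to 41.4 CPM (Cd68 averaged 19.95, 1.34 and 28.7 CPM), and melanocyte markers (7 genes) to 12.9 to 15.2, 7.17 to 10.4 and 9.72 to 15.9 CPM (Mitf averaged 13.5, 5.84 and 11.4 CPM). Krt8, Krt14, Mlana, Tyr and Tyrp1 had no count in beta-catenin -/- CAF, nor had Tyr in CAF or Mlana and Tyrp1 in NF. The part of these markers in the results below was not tested.

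On GRCm38 the ligand genes lie on chromosome 7 from 25687002 to 25705077 (Tgfb1, ENSMUSG00000002603), chromosome 1 from 186622792 to 186705989 (Tgfb2, ENSMUSG00000039239) and chromosome 12 from 86056745 to 86079041 (Tgfb3, ENSMUSG00000021253). The receptor genes lie on chromosome 4 from 47353222 to 47414931 (Tgfbr1, ENSMUSG00000007613), chromosome 9 from 116084293 to 116175360 (Tgfbr2, ENSMUSG00000032440) and chromosome 5 from 107106570 to 107289629 (Tgfbr3, ENSMUSG00000029287). Ltbp1 (ENSMUSG00000001870) is on chromosome 17 from 75005568 to 75392512, Ltbp2 (ENSMUSG00000002020) on chromosome 12 from 84783212 to 84876532, Ltbp3 (ENSMUSG00000024940) on chromosome 19 from 5740904 to 5758532 and Ltbp4 (ENSMUSG00000040488) on chromosome 7 from 27305136 to 27337692. Counts are given per gene, and the levels per length below take them as sums over its exons, although the counting rule is not known. With the strand setting unknown, reads of genes that overlap on opposite strands cannot be told apart, so counts of the 10 genes may hold reads of overlapping transcripts; those at Tgfb2, Tgfb3, Tgfbr3 and Ltbp2 had at most 52 counts in any library.

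The promoters of 4 genes that differed between the groups are shown, Tgfbr2 and Ltbp2, which were higher in CAF, and Tgfb2 and Ltbp3, which were lower, because they are the called genes with a single start in the RefSeq table (GRCm38.p6). Each runs 5′ to 3′ up to the annotated start of the gene, with CAGAC, the Smad-binding box, in capitals (GTCTG where it lies on the other strand).
Tgfbr2, chr9:116175364-116175613, minus strand: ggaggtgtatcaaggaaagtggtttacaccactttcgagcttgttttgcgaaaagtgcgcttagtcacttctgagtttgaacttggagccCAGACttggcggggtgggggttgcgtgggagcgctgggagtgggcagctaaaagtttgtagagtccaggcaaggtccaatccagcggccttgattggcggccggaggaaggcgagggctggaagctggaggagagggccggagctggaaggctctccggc
Ltbp2, chr12:84876533-84876741, minus strand: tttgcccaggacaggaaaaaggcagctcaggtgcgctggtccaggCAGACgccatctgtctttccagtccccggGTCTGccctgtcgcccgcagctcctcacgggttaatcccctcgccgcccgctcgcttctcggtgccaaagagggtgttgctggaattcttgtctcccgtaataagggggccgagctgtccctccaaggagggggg
Tgfb2, chr1:186705990-186706239, minus strand: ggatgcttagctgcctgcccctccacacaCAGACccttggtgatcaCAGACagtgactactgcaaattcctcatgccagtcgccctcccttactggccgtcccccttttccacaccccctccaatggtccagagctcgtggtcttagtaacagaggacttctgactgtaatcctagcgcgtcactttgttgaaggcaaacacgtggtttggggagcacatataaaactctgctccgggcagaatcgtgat
Ltbp3, chr19:5740650-5740899, plus strand: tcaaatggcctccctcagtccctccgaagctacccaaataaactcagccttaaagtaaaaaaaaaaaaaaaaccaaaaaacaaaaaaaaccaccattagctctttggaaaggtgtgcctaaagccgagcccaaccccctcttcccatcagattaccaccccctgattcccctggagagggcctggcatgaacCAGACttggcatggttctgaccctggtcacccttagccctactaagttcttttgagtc
The table held promoters of 8 of the 10 genes, with 12 windows of the 250 bases before a start. On either strand, CAGAC was in 7 of these 12 windows, beside 42.2% of all 32851 windows of this length. The 7 windows belonged to 6 of the 8 genes (Ltbp1, Ltbp2, Ltbp3, Tgfb2, Tgfbr1 and Tgfbr2). The TCF/LEF core CTTTGAT was in 0 of the 12 windows of these 8 genes and in 3.21% of all windows, and the AP-1 site TGANTCA was in 0 and in 6.75%. A match describes letters only.

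CAF carried more Tgfb3, Tgfbr2, Tgfbr3 and Ltbp2 transcript than NF and less Tgfb2, Ltbp3 and Ltbp4. Of the 10 genes, 4 rose and 3 fell in CAF, while 20% of all tested genes were called higher and 19.9% lower; Tgfb1, Tgfbr1 and Ltbp1 did not pass the test. The median log2 fold change of the 10 genes was -0.09, against -0.04 over all tested genes. Between beta-catenin -/- CAF and CAF, 4 genes rose (Tgfb2, Ltbp1, Ltbp3 and Ltbp4) and 4 fell (Tgfb3, Tgfbr2, Tgfbr3 and Ltbp2), beside 21.5% and 22.7% of all tested genes, with medians of -0.04 and -0.01. For CAF and NF, the libraries did not overlap for the 7 called genes (4 above and 3 below), beside 48.2% of all tested genes (24.6% above, 23.6% below), and 39.9% of tested genes were called either way. For beta-catenin -/- CAF and CAF they did not overlap for the 8 called genes, beside 65.7% of all genes (32.4% above, 33.3% below), with 44.2% called either way. These comparisons share the CAF libraries, so opposite signs in them are no separate evidence. Between beta-catenin -/- CAF and NF, edgeR called 0 of the 10 genes, and 0% of all tested genes. There 1 gene, Ltbp1, had all beta-catenin -/- CAF libraries above all NF libraries, beside 3.23% of all genes, with 3.64% below and 6.87% not overlapping. In bulk RNA, fewer cells of a type and less RNA per cell cannot be told apart.

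**Figure D1:**
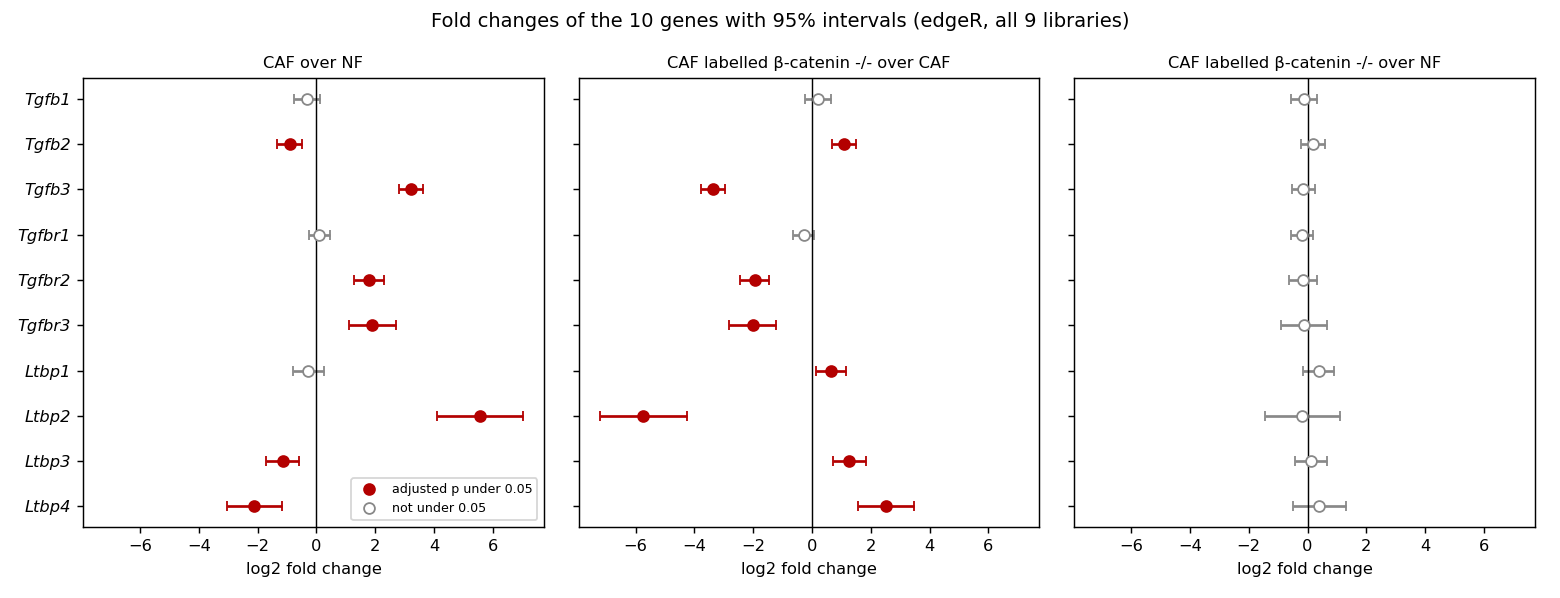
Log2 fold changes (x axis) of the 10 genes (y axis) in 3 comparisons, with 95% intervals from 1 edgeR fit of 9 libraries; filled red points have an adjusted p under 0.05. Ltbp2 and Tgfb3 lie farthest from 0 in the 2 panels with CAF, and the 10 intervals of beta-catenin -/- CAF over NF all include 0.

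The ligands differed in direction. Tgfb3, an isoform known from palate fusion and wound repair, stood at 21.1, 20.9 and 16.0 CPM in beta-catenin -/- CAF, 171, 194 and 231 CPM in CAF and 21.7, 18.6 and 23.5 CPM in NF. Every CAF library was above every other library, and the outer groups overlapped. Relative to NF, Tgfb3 was higher in CAF by a log2 fold change of 3.22 ± 0.18 (SE), or 9.34-fold (edgeR quasi-likelihood adjusted p = 2.47e-06), and relative to CAF it was lower in beta-catenin -/- CAF by -3.36 ± 0.18, at 9.72% of the CAF level (adjusted p = 2.41e-06). Tgfb2, an isoform that binds the kinase receptors well only with betaglycan, had 24.0, 22.2 and 19.5 CPM in beta-catenin -/- CAF, 11.2, 11.5 and 8.12 CPM in CAF and 20.5, 19.9 and 17.5 CPM in NF. Here the CAF libraries were the lowest. The log2 fold change was -0.91 ± 0.18 for CAF over NF (adjusted p = 0.00350) and 1.09 ± 0.18 for beta-catenin -/- CAF over CAF (adjusted p = 0.00128). Tgfb1, the isoform best known from fibrosis, had 77.0, 79.3 and 89.1 CPM in beta-catenin -/- CAF, 61.5, 93.2 and 58.3 CPM in CAF and 102, 84.6 and 80.0 CPM in NF. The groups overlapped, with CAF replicate 2 above 2 of the NF libraries. For CAF over NF its log2 fold change was -0.33 (95% interval -0.76 to 0.11, adjusted p = 0.216), and without CAF replicate 2 it was -0.56 (adjusted p = 0.0264).

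The make-up of the ligand transcripts differed between the groups, on a per-length scale (CPM per kb of exon). Tgfb3 made up 22.2% ± 3.34 of the 3 ligands in beta-catenin -/- CAF, 78.6% ± 5.21 in CAF and 23.2% ± 3.20 in NF (SD, n = 3 each). Tgfb1 made up 63.1% ± 4.85, 18.9% ± 4.77 and 64.6% ± 2.88 in the same order, so the most abundant ligand was Tgfb1 in 6 libraries and Tgfb3 in the 3 CAF libraries. The 3 ligands summed to 25.7 ± 0.0603 CPM per kb in beta-catenin -/- CAF, 74.6 ± 8.80 in CAF and 27.3 ± 2.58 in NF. With the longest transcript as the length, Tgfb3 made up 13.7%, 66.6% and 14.2%, and the leading ligand of each group was the same.

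Of the receptors, Tgfbr2 and Tgfbr3 rose in CAF and Tgfbr1 was not called. Tgfbr2, the kinase receptor that binds ligand first, had 111, 94.0 and 76.8 CPM in beta-catenin -/- CAF, 303, 414 and 375 CPM in CAF and 78.7, 112 and 125 CPM in NF. All CAF libraries were above all others, which overlapped. Tgfbr2 was higher in CAF than in NF by a log2 fold change of 1.79 ± 0.22 (3.46-fold, adjusted p = 2.06e-04) and lower in beta-catenin -/- CAF than in CAF by -1.95 ± 0.22 (adjusted p = 1.34e-04). Tgfbr3, betaglycan, had 75.5, 70.6 and 49.7 CPM in beta-catenin -/- CAF, 264, 296 and 234 CPM in CAF and 48.7, 46.1 and 119 CPM in NF. NF replicate 3 was the highest library outside CAF. The log2 fold change of Tgfbr3 was 1.90 ± 0.35 for CAF over NF (adjusted p = 0.00234), or 2.48 without NF replicate 3, and -2.02 ± 0.36 for beta-catenin -/- CAF over CAF (adjusted p = 0.00164). Tgfbr1, which passes the signal to the Smads, had 50.3, 52.8 and 46.1 CPM in beta-catenin -/- CAF, 66.5, 51.0 and 64.6 CPM in CAF and 46.8, 60.4 and 62.6 CPM in NF. Its groups overlapped, and its log2 fold change was 0.10 for CAF over NF (95% interval -0.26 to 0.46, adjusted p = 0.662) and -0.29 for beta-catenin -/- CAF over CAF (-0.65 to 0.07, adjusted p = 0.175). Within single libraries, the ratio of Tgfbr2 to Tgfbr1 per length was 1.77, 1.42 and 1.33 in beta-catenin -/- CAF, 3.64, 6.47 and 4.64 in CAF and 1.34, 1.48 and 1.60 in NF.

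The latent binding proteins split. Ltbp2, which joins fibrillin microfibrils but, unlike its relatives, does not bind latent TGF-beta, had 5.08, 7.32 and 7.10 CPM in beta-catenin -/- CAF, 411, 495 and 140.0 CPM in CAF and 2.91, 13.3 and 5.72 CPM in NF. CAF replicate 3 was the lowest of its group and still above every library outside it. Its log2 fold change was 5.56 ± 0.65 for CAF over NF (47.1-fold, adjusted p = 1.54e-04), or 6.33 without NF replicate 2, and -5.74 ± 0.66 for beta-catenin -/- CAF over CAF (1.87% of the CAF level, adjusted p = 1.44e-04). Ltbp3, which binds all the latent ligands and is known from bone and tooth, had 275, 258 and 295 CPM in beta-catenin -/- CAF, 106, 153 and 84.8 CPM in CAF and 331, 213 and 217 CPM in NF. All CAF libraries were below the rest. For CAF over NF it fell by 1.14 ± 0.25 on the log2 scale (adjusted p = 0.00507), and for beta-catenin -/- CAF over CAF it rose by 1.26 ± 0.25 (adjusted p = 0.00291). Leaving out single libraries of CAF or NF gave log2 fold changes of -1.39 to -0.89 for CAF over NF. Ltbp4, an organiser of elastic fibres that binds latent TGF-beta weakly, had 126, 131 and 166 CPM in beta-catenin -/- CAF, 17.9, 27.9 and 27.6 CPM in CAF and 188, 57.4 and 73.9 CPM in NF. NF replicate 1 was the highest library and the other NF libraries lay below those of beta-catenin -/- CAF. For CAF over NF the log2 fold change of Ltbp4 was -2.12 ± 0.41 (adjusted p = 0.00297), or -1.41 without NF replicate 1, and for beta-catenin -/- CAF over CAF it was 2.52 ± 0.42 (5.76-fold, adjusted p = 0.00119). Ltbp1, the main carrier of latent TGF-beta in fibroblast matrix, had 649, 586 and 618 CPM in beta-catenin -/- CAF, 469.9, 369 and 344 CPM in CAF and 581, 314 and 532 CPM in NF. NF spanned the CAF values. For CAF over NF it was at -0.27 (95% interval -0.80 to 0.25, adjusted p = 0.395). For beta-catenin -/- CAF over CAF it rose by 0.65 ± 0.23 (adjusted p = 0.0482), a call that ended with RLE scaling (adjusted p = 0.0574) and without any library of the comparison except CAF replicate 1 (up to adjusted p = 0.146).

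**Figure D2:**
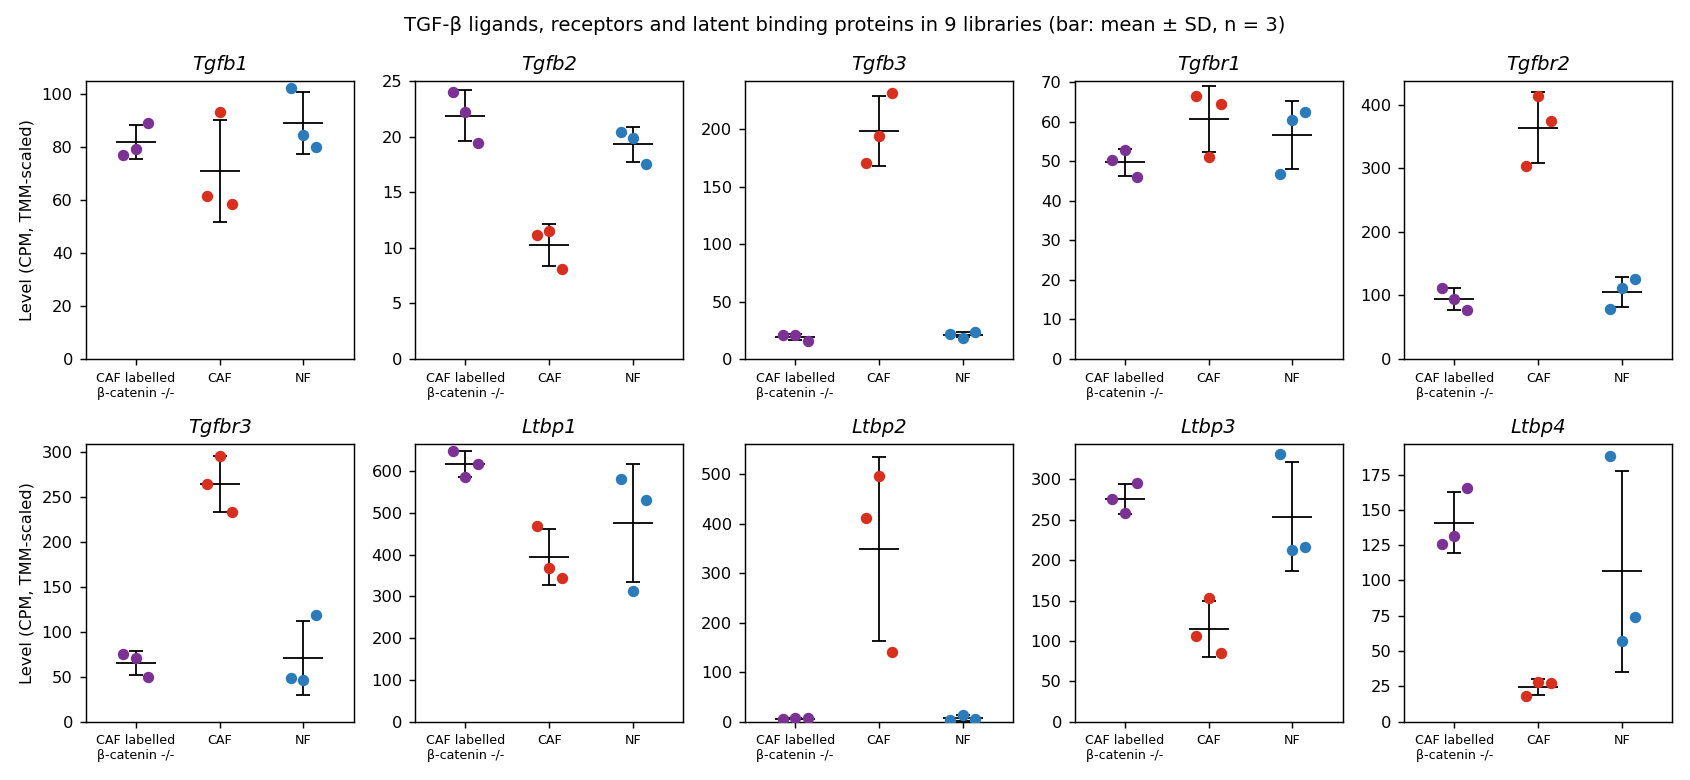
Levels (y axes, CPM, each from 0) of the 10 genes in beta-catenin -/- CAF, CAF and NF; points are single libraries and bars the mean ± SD (n = 3). CAF libraries are above all others for Tgfb3, Tgfbr2, Tgfbr3 and Ltbp2 and below all others for Tgfb2, Ltbp3 and Ltbp4.

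Per length, Ltbp2 made up 0.719% ± 0.150 of the 4 latent binding protein transcripts in beta-catenin -/- CAF, 41.8% ± 13.01 in CAF and 1.22% ± 1.18 in NF. Ltbp3 made up 27.5% ± 0.348, 13.4% ± 2.26 and 31.8% ± 4.76, and Ltbp4 19.6% ± 2.24, 4.35% ± 2.18 and 17.2% ± 6.10. The sum of the 4 genes was 111 ± 6.16 CPM per kb in beta-catenin -/- CAF, 96.0 ± 28.9 in CAF and 89.9 ± 28.7 in NF, with spreads that overlap. This sum includes Ltbp2, which does not bind latent TGF-beta and averaged 0.794, 42.6 and 0.892 CPM per kb in that order. It is therefore no measure of the transcripts whose products bind latent TGF-beta. Ltbp1, Ltbp3 and Ltbp4 each had their lowest group mean in CAF, although the Ltbp1 libraries of CAF and NF overlapped.

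**Figure D3:**
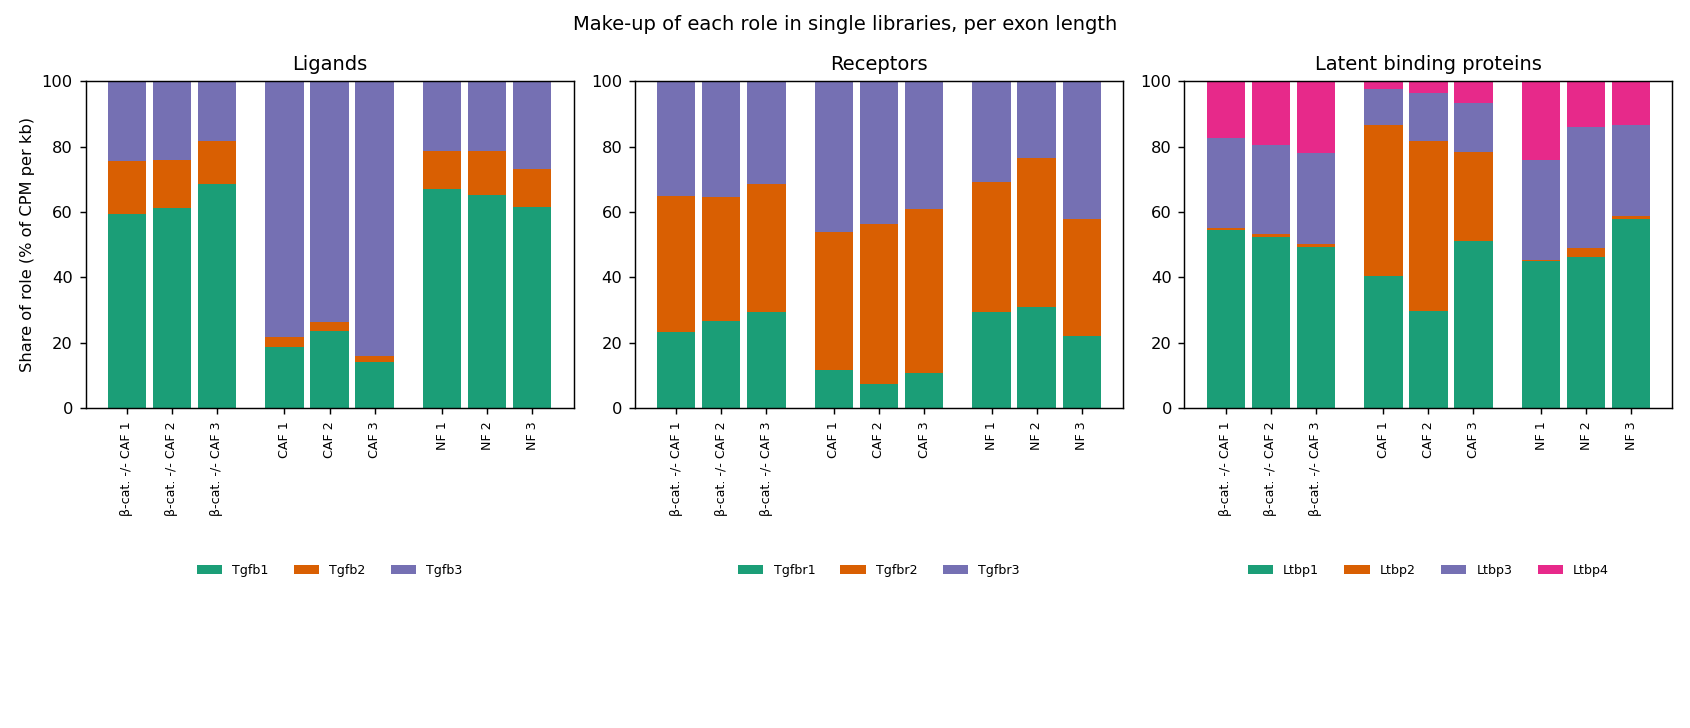
Share of each gene in its role (y axis, % of CPM per kb of exon) in the 9 libraries (x axis), for ligands, receptors and latent binding proteins. Tgfb3 takes 73.7% to 84.1% of the ligand bars in CAF and at most 26.9% elsewhere, and Ltbp2 at least 27.2% of the latent binding protein bars in CAF and at most 2.56% elsewhere.

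The order of the levels per length of exon also differed. In CAF, Tgfb3 had the highest mean at 58.8 ± 9.02 CPM per kb, although Ltbp2 was above it in CAF replicate 2 (60.5 CPM per kb of Ltbp2 and 57.3 of Tgfb3), followed by Tgfbr2 (44.5), Ltbp2 (42.6), Tgfbr3 (40.4) and Ltbp1 (36.9), of which neighbours overlapped, then Tgfb1 (14.1), Ltbp3 (12.7) and Tgfbr1 (9.29), also overlapping as neighbours, and last Ltbp4 (3.79) and Tgfb2 (1.77). In NF, Ltbp1 (44.5 ± 13.3 CPM per kb) and Ltbp3 (27.98) overlapped at the top, followed by Tgfb1 (17.7), Ltbp4 (16.5), Tgfbr2 (12.9), Tgfbr3 (10.9) and Tgfbr1 (8.66), which overlapped as neighbours, then Tgfb3 (6.29), Tgfb2 (3.33) and Ltbp2 (0.892). Beta-catenin -/- CAF had Ltbp1 (57.8 ± 2.93 CPM per kb), Ltbp3 (30.4), Ltbp4 (21.8) and Tgfb1 (16.2) apart from each other, then Tgfbr2 (11.5), Tgfbr3 (9.97) and Tgfbr1 (7.61) with overlapping neighbours, and Tgfb3 (5.71), Tgfb2 (3.78) and Ltbp2 (0.794) last. With the longest transcript as the length, a choice added after seeing the data, Ltbp1 (59.1 ± 9.98 CPM per kb) and Tgfb3 (58.8 ± 9.02) overlapped at the top in CAF, Ltbp2 (51.5) came before Tgfbr2 (44.98), and Tgfb1 (31.8) came before Ltbp4 (26.2) in beta-catenin -/- CAF; the order in NF was the same.

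Between beta-catenin -/- CAF and NF, log2 fold changes of the 10 genes ran from -0.19 for Tgfbr1 to 0.40 for Ltbp4. The edgeR test called 0 of the 10 and 0 of the 14314 genes, with 0 of the 10 and 702 of all genes under an unadjusted p of 0.05; DESeq2 called 6 genes and limma-voom 0, none of them among the 10. Intervals were narrowest for Tgfbr1 (95% interval -0.55 to 0.17) and Tgfb3 (-0.53 to 0.25), and widest for Ltbp2 (-1.46 to 1.09). Log2 fold changes within these intervals are compatible with the data, so the lack of a call does not show equal levels. Without NF replicate 1, 1620 genes were called higher and 1039 lower, and of the 10 genes Ltbp4 was called, higher in beta-catenin -/- CAF by a log2 fold change of 1.12 (adjusted p = 0.0147).

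Of a list of 17 genes tied to the anchoring, processing or release of latent TGF-beta, 16 were tested. Of these 16, 7 rose and 2 (Itgb8 and Plau) fell in CAF relative to NF, beside 20% and 19.9% of all tested genes. The median log2 fold change was 0.91, against -0.04 over all tested genes. Lrrc32, a surface anchor for latent TGF-beta, had 8.996, 8.82 and 3.75 CPM in beta-catenin -/- CAF, 372, 505 and 157 CPM in CAF and 3.80, 1.24 and 13.8 CPM in NF. Thbs1, thrombospondin, an activator, had 1116, 894 and 78.9 CPM, then 20230, 21110 and 14430 CPM, and 199, 548 and 2728 CPM in the same groups. Both were highest in the 3 CAF libraries, with log2 fold changes of 5.80 ± 0.87 (adjusted p = 6.75e-04) and 4.004 ± 1.11 (adjusted p = 0.0173) for CAF over NF. The integrin chain Itgb8, part of an integrin that activates TGF-beta, went the other way, at 12.4, 8.15 and 12.2 CPM in beta-catenin -/- CAF, 0.672, 0.207 and 0.478 CPM in CAF and 6.27, 4.05 and 3.81 CPM in NF. Plau, the urokinase protease, was at 48.3 to 141 CPM in CAF and 221 to 2377 CPM in NF. The genes called lower numbered 1 without CAF replicate 2, CAF replicate 3 or NF replicate 3, and 4 without NF replicate 1. For beta-catenin -/- CAF over CAF, 8 of the 16 fell and 2 (Itgb8 and Plau) rose, with a median of -0.94, beside 22.7% of all tested genes lower and 21.5% higher. The 2 that rose became 1 with limma-voom and on leaving out beta-catenin -/- CAF replicate 1 or 2 or any of the 3 CAF replicates; for this count the NF libraries were not left out in turn.

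Matrix proteins that hold latent complexes or bind TGF-beta were mostly higher in CAF. Of 15 genes, 11 rose and 0 fell relative to NF (20% and 19.9% of all tested genes), with a median log2 fold change of 3.91, and the 4 not called were Fn1, Emilin1, Dcn and Tgm2. Mfap2 and Mfap5, microfibril proteins, averaged 0.129 and 0 CPM in beta-catenin -/- CAF, 47.3 and 60.1 CPM in CAF and 0.194 and 0.160 CPM in NF. Aspn, a small proteoglycan that binds TGF-beta, was at 132, 139.7 and 335 CPM in CAF and at most 0.887 CPM in NF. Fmod, a relative of Aspn, lacked any count in NF libraries; set against a floor of 3 counts over that group, it was higher in CAF by at least 477-fold. Relative to CAF, 11 genes fell and 0 rose in beta-catenin -/- CAF (22.7% and 21.5% of all tested genes), with a median of -2.92. Mfap5 had no count there and was at least 1027-fold lower, and Fmod had 1 count and was lower by 1344-fold (95% counting interval 241 to 53140). The medians were the same with the gene that had no count set to its bound.

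Receptor partners and Smads held calls in both directions. Of 17 genes, 6 rose (Smad2, Smad6, Ski, Tgif2, Acvrl1 and Bambi) and 4 fell (Smad3, Zfyve9, Tgif1 and Eng) in CAF relative to NF, beside 20% and 19.9% of all tested genes, with a median log2 fold change of -0.20. Smad6, an inhibitory Smad, had 0.835, 0.882 and 2.08 CPM in beta-catenin -/- CAF, 13.7, 22.2 and 13.04 CPM in CAF and 1.84, 1.28 and 0.185 CPM in NF. Acvrl1, a type I receptor of the family, had 10.7, 11.4 and 13.1 CPM, then 83.4, 101 and 62.7 CPM, and 9.38, 10.9 and 6.95 CPM in the same order. CAF stood highest for both genes, with log2 fold changes of 3.88 ± 0.65 (adjusted p = 0.00124) and 3.18 ± 0.23 (adjusted p = 1.11e-05) over NF. The co-receptor Eng was lower in CAF, at 253, 250.2 and 296 CPM in beta-catenin -/- CAF, 69.4, 96.7 and 66.1 CPM in CAF and 262, 173 and 187 CPM in NF. Tgif1, a co-repressor of Smads, had a log2 fold change of -1.51 ± 0.16 for CAF over NF, and Bambi, a decoy receptor, of 1.79 ± 0.33. For the transducers themselves it was 0.51 ± 0.15 for Smad2 (adjusted p = 0.0230) and -0.82 ± 0.15 for Smad3 (adjusted p = 0.00209). In beta-catenin -/- CAF relative to CAF, 5 genes rose and 6 fell, beside 21.5% and 22.7% of all tested genes, with a median of 0.22.

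Genes known to respond to TGF-beta were largely higher in CAF. Of 30 genes, 22 rose and 2 (Tgfbi and Il11) fell relative to NF, beside 20% and 19.9% of all tested genes, and the median log2 fold change was 4.09. The contractile genes Tagln, Acta2 and Cnn1 and the crosslinker Loxl2 had the largest changes among called members averaging at least 5 CPM. Cnn1 averaged 0.208 CPM in beta-catenin -/- CAF, 201 CPM in CAF and 0.227 CPM in NF. Ccn2, a direct target in many cells, averaged 8.62 CPM in beta-catenin -/- CAF, 888 CPM in CAF and 17.7 CPM in NF. Tgfbi, named for its induction by TGF-beta, averaged 528, 73.4 and 926 CPM in these groups, with a log2 fold change of -3.66 ± 0.67 for CAF over NF (adjusted p = 0.00207). In beta-catenin -/- CAF relative to CAF, 24 fell and 2 (Tgfbi and Il11) rose, beside 22.7% and 21.5% of all tested genes, with a median of -3.78; the feedback inhibitor Smad7 fell by 0.80 ± 0.29 on the log2 scale (adjusted p = 0.0466). Between beta-catenin -/- CAF and NF, 0 genes of these 4 lists (16, 15, 17 and 30 tested genes) were called, beside 0% of all tested genes. Without NF replicate 1, 12 list genes were called higher and 6 lower, beside 1620 higher and 1039 lower over all genes.

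**Figure D4:**
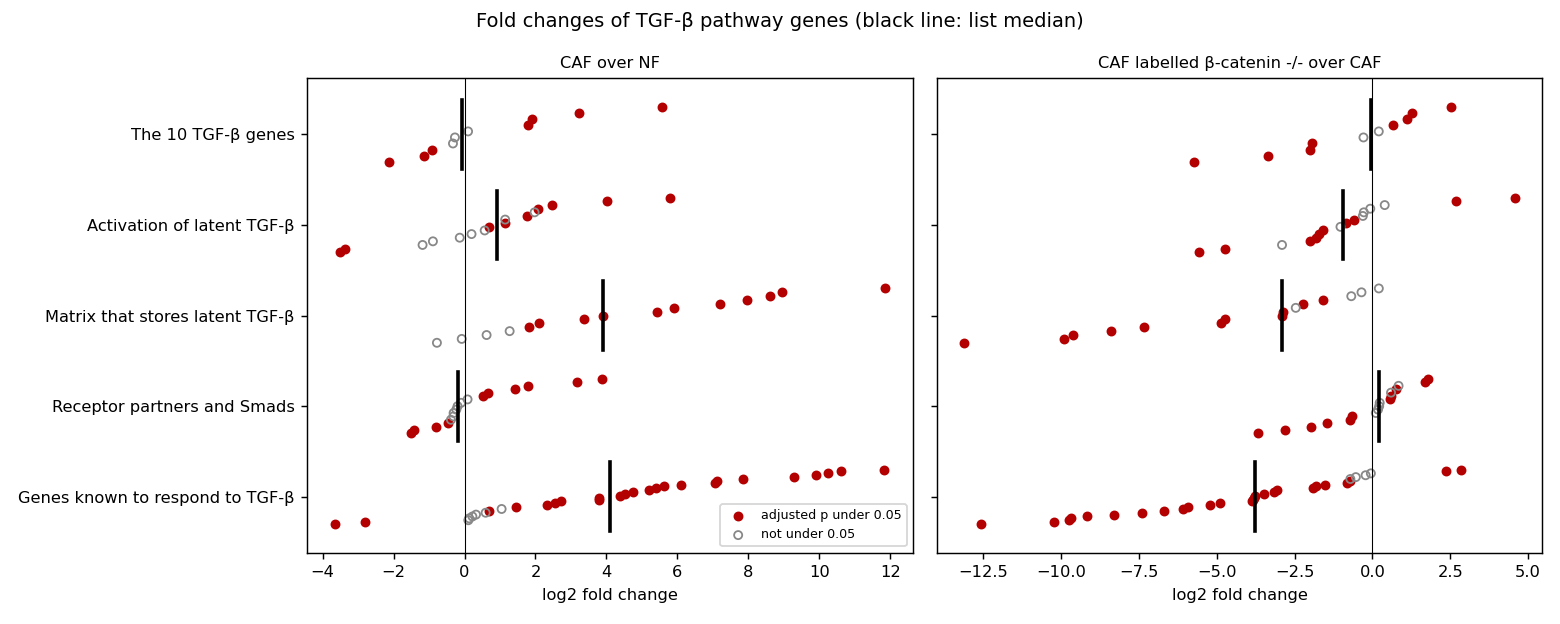
Log2 fold changes (x axes) of the 10 genes and of 4 lists of pathway genes (rows), for CAF over NF and for beta-catenin -/- CAF over CAF; red points have an adjusted p under 0.05 and black lines are medians. The 10 genes spread to both sides, with medians of -0.09 and -0.04, while the response list has medians of 4.09 and -3.78.

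The member of each role with the highest mean CPM per kb of exon over the 9 libraries was taken, which for Tgfb3 (23.6, against 16.0 for Tgfb1) rests on the CAF libraries; with the longest transcript as the length Tgfb1 (31.3) is above Tgfb3 (23.6). The genes most like these members were found over the 9 libraries by Pearson r of log2(CPM + 1) among 10371 genes, as a description of libraries that fall into groups. For Tgfb3 they were Pygb (r = 0.999), Dpt (0.998) and Ptk7 (0.997); Ptk7 averaged 7.61 CPM in beta-catenin -/- CAF, 1242 CPM in CAF and 7.14 CPM in NF. For Tgfbr2 they were Aacs (0.995), Crispld2 (0.995) and Tcf7l1 (0.994). Ltbp1 had weaker likeness, to Clcc1 (0.963), Sgms1 (0.960) and Zdhhc20 (0.958).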

How the data were processed

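The authors deposited raw read counts per Ensembl gene for 9 samples, without normalization. The tools named in the submitters' processing notes are TopHat, bcl2fastq and edgeR, and the build is mm10. Neither the read counter, its strand setting nor the annotation behind it is known here. The series table and the 9 sample files held the same counts (0 cells differed). Gene names, coordinates and exon lengths came from GENCODE M21 on GRCm38 (51719 of 51912 IDs matched). Groups came from source and genotype labels, and replicate numbers follow record order.

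The 14314 genes that passed filterByExpr entered a single quasi-likelihood model of the 9 samples, with TMM factors and group as the only term (edgeR 4.0.16, R 4.3.3), with Benjamini-Hochberg adjustment over all tested genes and calls under 0.05. Standard errors and 95% intervals came from the F statistic. CPM used TMM library sizes of the tested genes; 3 counts equal 0.128 to 0.193 CPM, a floor that covers counting error only. Alternatives were limma-voom (limma 3.58.1), DESeq2 1.42.0, RLE scaling, total counts, no filter, a minimum CPM of 1 in 3 samples, fits of the 6 samples compared alone, the longest transcript as length (for the order of levels, added after seeing the data), and leaving out each library. The edgeR fit was also run on counts simulated from its own means and dispersions, which cannot show how well it suits these libraries. No pair of libraries agreed within sampling noise (chi-square per gene at least 20.4). The members, the lists and the tests were chosen with earlier results of these data known. Named genes were the 10 members, Ctnnb1, up to 4 called genes per list and comparison with the largest change and mean CPM of at least 5, and the 3 genes most like the leading member of each role; Smad2, Smad3, Smad7, Ccn2, Tgfbi, Il11 and genes named for completing a count were chosen after their values were seen. Some items are not reported here.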

Additional observations from a re-analysis of the deposited data

How the results depend on the processing

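The calls of the 10 genes for CAF over NF and for beta-catenin -/- CAF over CAF had the same direction and side of the threshold under every alternative, except those of Tgfb1 (without CAF replicate 2) and Ltbp1 given above and the sign of Tgfbr1. Signs of uncalled values turned for Tgfbr1 in CAF over NF (-0.0631 with total counts) and, in beta-catenin -/- CAF over NF, for Tgfbr3 and Ltbp2 with limma-voom (0.0025 and 0.0028). Leaving out single libraries gave -0.006 to 0.23 for Tgfbr1 in the first, and -0.19 to 0.0027 for Tgfb1, -0.36 to 0.46 for Tgfbr3 and -0.55 to 0.59 for Ltbp2 in the last. Over all genes, beta-catenin -/- CAF over NF had 1 higher without a filter and 6 with DESeq2; leaving out single libraries gave 0 to 1620 higher and 0 to 1039 lower genes, and 0 to 1 higher of the 10. Total counts moved the median log2 fold change of CAF over NF to -0.20, against -0.04, and the calls to 2440 higher and 3701 lower, against 2866 and 2847; for beta-catenin -/- CAF over CAF they gave a median of 0.12 and 3743 higher and 2686 lower, against 3079 and 3253. No paired analysis was possible because the replicate numbers only follow record order. Groups of 3 libraries limit what small changes can show; the genes themselves had 46 to 11296 counts per library.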
